A study of Mus musculus with 4 samples.

Results

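AP-1 linked and inflammation-induced miRNAs were followed in mouse embryonic fibroblasts (MEFs) with and without Junb. The 8 miRNAs were taken by name, as those known to answer to AP-1, NF-kB or CREB signals, and a row counted when its name stood alone or carried only an arm suffix. All 8 were found among the 710 mouse miRNAs of the array, each as a single name without an arm, and star strands were left out. The array, a Febit microfluidic chip read in 1 colour, carries 8 spots per miRNA. It labels a captured miRNA by enzymatic extension with biotin and a phycoerythrin stain. RNA came from 2 wild type and 2 Junb-/- MEF clones, with 1 array per clone. All clones were derived from embryos at embryonic day 9.5 on a mixed C57BL/6 × 129/Sv background, were immortalized by serial passage and were grown at 37 °C and 8% CO2 with 10% fetal calf serum. No stimulus was named for any clone, so the values are those of cells in serum. Each sample is a single immortalized line. The paper calls the clone pairs independent, but no source used here says that the 2 lines of a genotype stem from different embryos. The p-values therefore measure only the spread between these clones.

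AP-1 is a family of dimeric transcription factors built from JUN and FOS proteins, and JUNB is one of its JUN subunits. AP-1, NF-kB and CREB are switched on by growth factors, cytokines and cyclic AMP, and their targets include genes of primary miRNA transcripts. miR-21 and miR-155 are known targets of AP-1, miR-146a is an NF-kB target that restrains Toll-like receptor signalling, miR-221 and miR-222 promote the cell cycle, and miR-132 and miR-212 are the classical CREB-induced pair. A miRNA finds its mRNA targets mainly through its seed, bases 2 to 8 from the 5′ end.

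The mature sequences are shown because the seed decides which members can be read as a family, and because members with near-identical sequences may bind each other's probes. They were read from RefSeq (GRCm38.p6), which held all 8, and the seed is in capitals. An older miRNA name without an arm stands for the main strand, which is the 5p arm for the first 4 and the 3p arm for the last 4 of these lines. The probe sequences themselves were not used here. The lines fall into 5 seeds.
mmu-miR-21: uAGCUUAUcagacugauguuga
mmu-miR-155: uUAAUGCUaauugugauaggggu
mmu-miR-146a: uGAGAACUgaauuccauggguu
mmu-miR-146b: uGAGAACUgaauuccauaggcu
mmu-miR-221: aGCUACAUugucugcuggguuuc
mmu-miR-222: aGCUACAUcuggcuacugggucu
mmu-miR-132: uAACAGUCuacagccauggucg
mmu-miR-212: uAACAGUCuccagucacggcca

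In GRCm38.p6 the mature miR-21 lies at chr11:86584120-86584141 on the minus strand within Vmp1, and miR-155 at chr16:84714143-84714165 on the plus strand within its host transcript Mir155hg. miR-146a lies at chr11:43374435-43374456 on the minus strand outside any annotated host gene, and miR-146b at chr19:46342790-46342811 on the plus strand within the locus Gm36493. miR-221 (chrX:19146307-19146329) and miR-222 (chrX:19146901-19146923) are direct neighbours on the minus strand of chromosome X. miR-212 (chr11:75173443-75173464) and miR-132 (chr11:75173723-75173744) are direct neighbours on the plus strand of chromosome 11. The 2 miR-146 sequences, from separate chromosomes, are identical at 20 of 22 positions. Counted from the 5′ end, miR-146a and miR-146b differ by G18A and U21C. miR-132 and miR-212 are identical at 17 of 22 positions and first differ at base 10. miR-221 and miR-222 are the same up to base 8 and first differ at base 9. How far a miRNA binds the probe of its relative on this array was not tested.

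The comparison asks whether loss of Junb moves these miRNAs. None of the 8 passed the test of Junb-/- against wild type in limma (adjusted p under 0.05 over all 710 miRNAs). Across the array, 0.563% of miRNAs were called higher and 0.845% lower in Junb-/- MEFs, so a count of 0 among 8 members is near the background. At an unadjusted p under 0.05, 1 member passed, miR-146b, against 10.4% of all miRNAs. At that unadjusted threshold the methods' t-test gave 2 members, miR-132 and miR-212, against 6.62% of all miRNAs. After adjustment it called 0 of the 710, so it gives no information on the members there. The median log2 fold change of the members was 0.10, beside 0.04 for all miRNAs, and the members ranged from -0.51 to 1.22. Both Junb-/- clones lay above both wild type clones for 2 members (miR-155 and miR-146b), which held for 21.3% of all miRNAs. They lay below for another 2 (miR-132 and miR-212), which held for 17.3%. The clones of the other 4 overlapped.

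Levels are given as normalized log2(intensity + 50), averaged over spots. A spot at intensity 0 would have a value of 5.644 before normalization, so levels near 6 come from spots with little signal and their differences are compressed. Spot intensities are given as deposited. Because each probe has its own brightness, levels of different miRNAs are not set against each other. Wild type clone 1 had the dimmest array, at a median spot intensity of 33.6 against 84.0 to 110.1 elsewhere. The deposited values have no flags or negative controls, so presence could not be called. The array holds no mRNA probes, so loss of Junb itself could not be checked. The plot of normalized levels shows the clones of each genotype side by side.

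**Figure D1:**
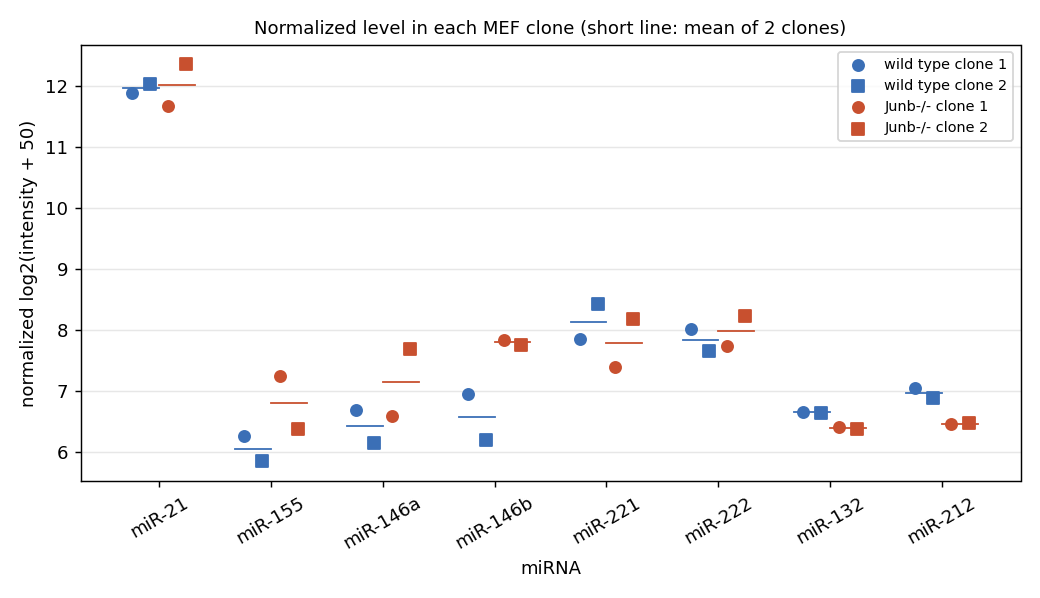
Normalized log2(intensity + 50) of the 8 miRNAs (x axis) in each of the 4 clones, with wild type in blue, Junb-/- in red and a short line at the mean of 2 clones. For miR-146b the Junb-/- clones sit at 7.83 and 7.76, above the wild type clones at 6.95 and 6.20, while the clones of miR-21 overlap.

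miR-146b had the largest difference of the 8, higher in both Junb-/- clones. miR-146b shares its seed with miR-146a, which in immune cells represses the signalling proteins Traf6 and Irak1. For mmu-miR-146b, wild type clones 1 and 2 gave median spot intensities of 35.5 and 10.9, against 264 and 340 for Junb-/- clones 1 and 2. The normalized levels, averaged over spots, were 6.95 and 6.20 against 7.83 and 7.76. The Junb-/- clones thus lay close together and above the wild type clones, which differed from each other by 0.75. Wild type MEFs averaged 6.57 ± 0.53 (SD, n = 2) and Junb-/- MEFs 7.79 ± 0.055 (SD, n = 2). On this scale the difference was 1.22 in log2 (standard error 0.37, 95% interval 0.42 to 2.03), or 2.33-fold, and it did not pass (adjusted p = 0.184 from limma).

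The spots of miR-146b did not all share this difference. Values were given for 6 spots on each wild type array, and for 7 and 8 spots on the arrays of Junb-/- clones 1 and 2. Of the 6 spots that both genotypes measured, 4 were higher and 2 lower in Junb-/- MEFs, with normalized differences from -1.03 to 2.67. In wild type clone 2 the brightest spot stood at 346 while the median was 10.9. In the Junb-/- clones, the dimmest spots stood at 4.80 and 15.4 and the brightest at 640 and 511. With only the spots measured on all 4 arrays, the log2 fold change was 1.08 (adjusted p = 0.292 from limma). In the authors' own normalization, miR-146b stood at 6.97 and 5.31 in wild type, against 8.80 and 8.77 without Junb. Here the log2 fold change was 2.64 (standard error 0.68, 95% interval 1.20 to 4.09, adjusted p = 0.0899 from limma). The difference kept its sign under all 18 alternatives, with log2 fold changes from 0.85 to 2.76. The filter on dim miRNAs, limma with a variance trend, the methods' t-test and the replicate block keep the clone levels. Those alternatives could not change the sign. The difference passed under none of the 18, and 7 of them called no miRNA of the array at all. Adjusted p-values ran from 0.0559 to 0.696 (limma or the methods' t-test).

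The star strand of the same hairpin, miR-146b*, is also on the array. Wild type clones 1 and 2 had levels of 7.67 and 8.41 for it, against 7.13 and 7.87 for Junb-/- clones 1 and 2. The ranges of the genotypes overlapped, while each Junb-/- clone lay 0.54 below the wild type clone of the same number. The sources do not say that the numbers pair the clones. The log2 fold change of -0.54 (95% interval -1.39 to 0.32, adjusted p = 0.738 from limma) had the opposite sign to that of miR-146b. Whether the strands differ in their response was not tested.

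mmu-miR-146a, whose primary transcript is induced by NF-kB, was high in a single Junb-/- clone. Median spot intensities stood at 20.8 and 37.0 for wild type clones 1 and 2, against 37.3 and 303.6 for Junb-/- clones 1 and 2. The normalized levels were 6.69 and 6.15, against 6.59 and 7.69. Junb-/- clone 1 lay within the range of the wild type clones, and only Junb-/- clone 2 lay above it. In that clone 6 of 8 spots exceeded an intensity of 50, against 3 in Junb-/- clone 1 and 1 and 2 in the wild type clones. Its log2 fold change was 0.73 (standard error 0.42, 95% interval -0.17 to 1.62, adjusted p = 0.625 from limma). Dropping Junb-/- clone 2 left 0.18, and dropping Junb-/- clone 1 left 1.27. miR-146b had a log2 fold change 0.50 above that of miR-146a, a difference that went from -0.089 without Junb-/- clone 1 to 1.08 without Junb-/- clone 2. An exact permutation test of 2 against 2 clones cannot give a two-sided p below 0.333, so differences between the members of a pair are given without a test.

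mmu-miR-155, cut from the long non-coding transcript Mir155hg and known for its induction in activated macrophages and lymphocytes, was at low signal in wild type MEFs. Wild type clones 1 and 2 showed median spot intensities of 17.6 and 16.8, against 116.8 and 42.9 for Junb-/- clones 1 and 2. No wild type spot exceeded 50, with highest values of 26.4 and 25.0, while 5 of 7 and 3 of 7 spots did so in Junb-/- clones 1 and 2. Averaged over the clones of a genotype, all 7 spots with values were higher in Junb-/- MEFs, by 0.37 to 1.76 after normalization. Junb-/- clone 2 alone was not higher at every spot. For example, it stood at 1.6 where wild type clones 1 and 2 stood at 7.04 and 22. At another spot it stood at 2, against 17.9 and 17.3. Normalized levels were 6.26 and 5.84 for wild type, against 7.24 and 6.37 for Junb-/-. Both Junb-/- clones lay above both wild type clones, with Junb-/- clone 2 only just above wild type clone 1. For miR-155 the log2 fold change was 0.75 (standard error 0.39, 95% interval -0.089 to 1.59, adjusted p = 0.531 from limma). Without Junb-/- clone 1 it was 0.32, and without Junb-/- clone 2 it was 1.19. With no offset it was 1.61. In the values normalized by the authors the clones of miR-155 overlapped, while those of miR-146a did not (6.45 and 6.03 for wild type against 6.46 and 8.61 for Junb-/-).

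**Figure D2:**
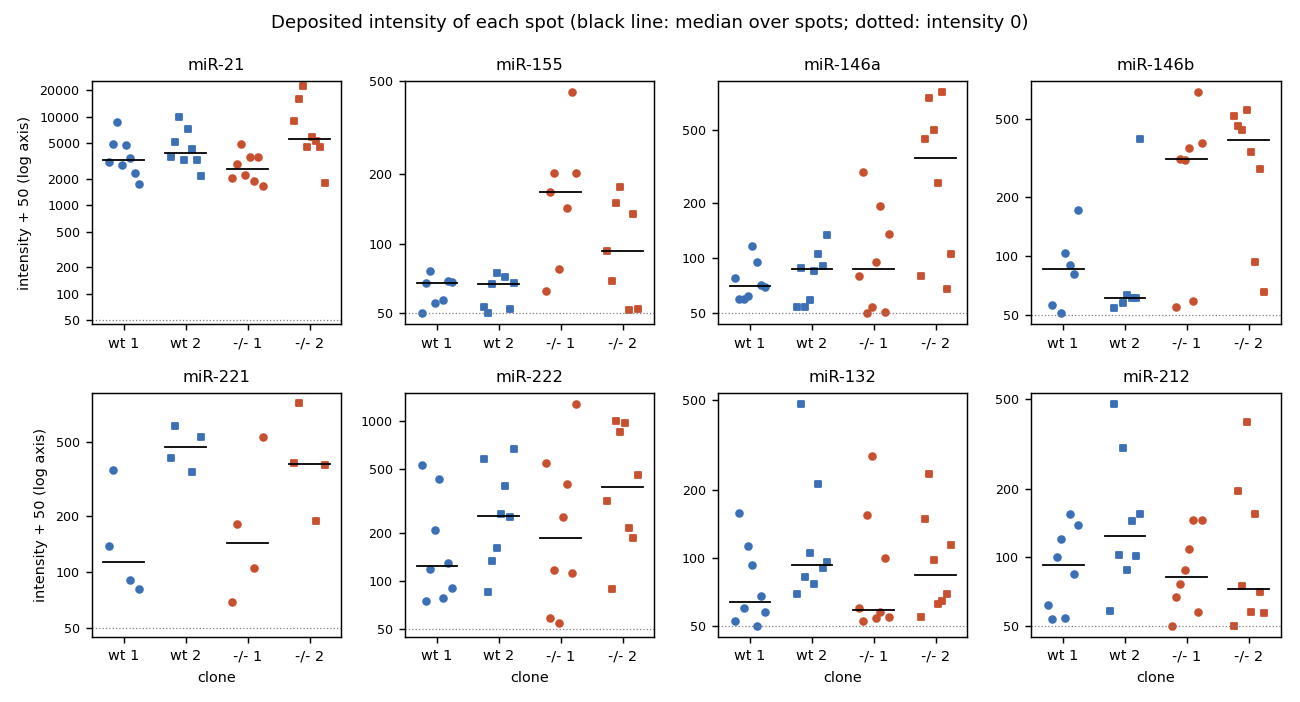
Deposited intensity plus 50 of every spot (log y axis) for each of the 8 miRNAs, by clone on the x axis (wt for wild type, -/- for Junb-/-), with the median as a black line and intensity 0 dotted. No wild type spot of miR-155 exceeds an intensity of 26.4. The median of miR-146a is 303.6 in Junb-/- clone 2 and 20.8 to 37.3 in the other clones, while single spots of Junb-/- clone 1 reach 247.2.

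mmu-miR-21, a miRNA of growing and injured fibroblasts that represses Pdcd4, is the member whose spots all lay far above the offset. Its spots ranged from 1586 to 22163 over the 4 arrays and none was at 0. Wild type clones 1 and 2 reached median spot intensities of 3204 and 3831, against 2517 and 5525 for Junb-/- clones 1 and 2. The Junb-/- clones thus lay on either side of the wild type clones. Normalized levels were 11.88 and 12.05 for wild type, against 11.67 and 12.36 for Junb-/-. Wild type MEFs averaged 11.96 ± 0.11 (SD, n = 2) and Junb-/- MEFs 12.02 ± 0.48 (SD, n = 2). The difference of 0.051 (95% interval -0.74 to 0.85, adjusted p = 0.971 from limma) was far smaller than the gap between the Junb-/- clones, and 4 of 8 spots were higher without Junb. Its sign changed with the processing, to -0.59 with median scaling and to -0.28 with the authors' values. The star strand miR-21* was lower in both Junb-/- clones, at 6.57 and 6.92 against 7.16 and 7.57 in wild type, with a log2 fold change of -0.62 (95% interval -1.40 to 0.15, adjusted p = 0.630 from limma) that did not pass.

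miR-221 and miR-222, which lie side by side on chromosome X and repress the cell cycle inhibitor Cdkn1b, did not separate the genotypes. Only 4 of the 8 spots of mmu-miR-221 had a value on any array. These spots had medians of 64.2 and 422.8 for wild type clones 1 and 2, against 93.9 and 333.2 for Junb-/- clones 1 and 2, so that clone 2 was brighter than clone 1 in both genotypes. The normalized levels were 7.85 and 8.42, against 7.39 and 8.18. The log2 fold change was -0.35 (95% interval -1.19 to 0.49, adjusted p = 0.840 from limma), and it was 0.046 without Junb-/- clone 1. mmu-miR-222 had median spot intensities of 74.9 and 207.6 for wild type, against 135.9 and 339.1 for Junb-/-. Its normalized levels, averaged over spots, were 8.01 and 7.65 for wild type, against 7.73 and 8.23 for Junb-/-. In wild type the levels thus had the reverse order of the medians. The log2 fold change of miR-222 was 0.15 (95% interval -0.64 to 0.93, adjusted p = 0.937 from limma). The neighbours had log2 fold changes of opposite sign, 0.50 apart, and with wild type clone 2 left out they were 0.030 apart.

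miR-132 and miR-212, neighbours on chromosome 11 between Hic1 and Ovca2 that are known for their induction by CREB in neurons, were lower in both Junb-/- clones by small amounts. mmu-miR-132 stood at 6.65 and 6.64 for wild type, against 6.40 and 6.38 for Junb-/-. mmu-miR-212 stood at 7.05 and 6.89 for wild type, against 6.45 and 6.47 for Junb-/-. For both miRNAs the clones of a genotype lay closer to each other than to the other genotype. The log2 fold change was -0.26 for miR-132 (95% interval -1.0 to 0.48, adjusted p = 0.893 from limma) and -0.51 for miR-212 (95% interval -1.26 to 0.24, adjusted p = 0.737 from limma). limma draws the spread of each miRNA towards that of all miRNAs, and the clones of wild type and Junb-/- were 0.0081 and 0.027 apart for miR-132 and 0.17 and 0.022 apart for miR-212. The methods' t-test, which uses each miRNA's own spread, gave unadjusted p-values of 0.00305 and 0.0265, and adjusted ones of 0.358 and 0.671.

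The spots of this pair were dim and scattered more than their averages. Those of miR-132 had medians of 13.4 and 43.0 for wild type, against 8.40 and 33.5 for Junb-/-. Those of miR-212 had medians of 42.2 and 73.6 for wild type, against 32 and 22.5 for Junb-/-. In Junb-/- MEFs 5 of 8 spots were lower for miR-132 and 7 of 8 for miR-212. The SD over spots within an array, 0.62 to 0.95 for miR-132 and 0.53 to 0.96 for miR-212 on the normalized log2 scale, exceeded the difference between the genotypes. Both kept their sign under all 17 alternatives that measured them. Alternatives that keep the clone levels, such as the replicate block and the methods' t-test, could not change it.

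**Figure D3:**
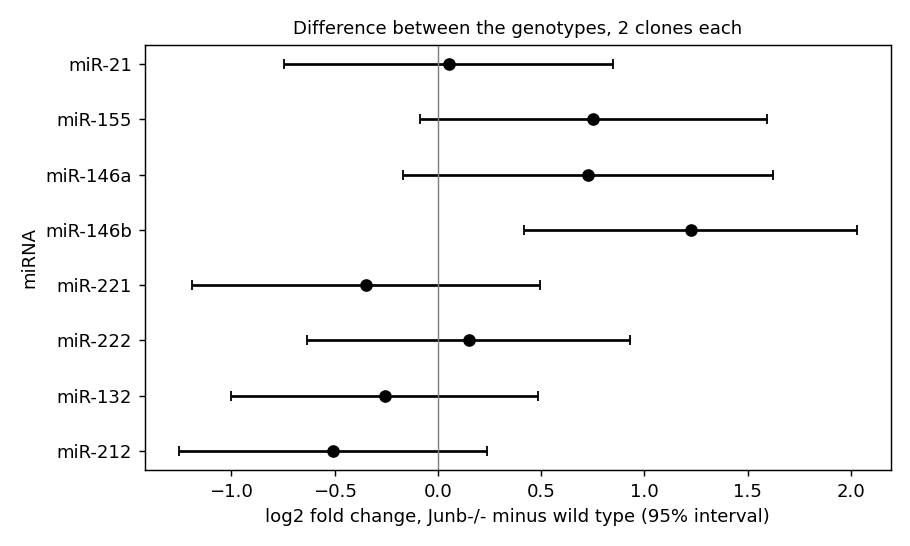
Log2 fold change of Junb-/- minus wild type (x axis) with its 95% interval from limma for the 8 miRNAs, 2 clones per genotype. The interval holds 0 for 7 of the 8, and that of miR-146b runs from 0.42 to 2.03.

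The clone that was left out mattered more for some members than for others, as the plot of alternatives shows. With any clone left out, the log2 fold change of miR-132 stayed between -0.27 and -0.24 and that of miR-212 between -0.59 and -0.43. That of miR-146b stayed between 0.85 and 1.60. That of miR-155 ran from 0.32 to 1.19 and that of miR-146a from 0.18 to 1.27, while miR-21, miR-221 and miR-222 changed sign. With 2 clones per genotype, these ranges restate the gaps between the clones of a genotype and are no separate check. Leaving out a clone left 1 clone in a genotype, which was then assumed to vary like the other genotype.

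**Figure D4:**
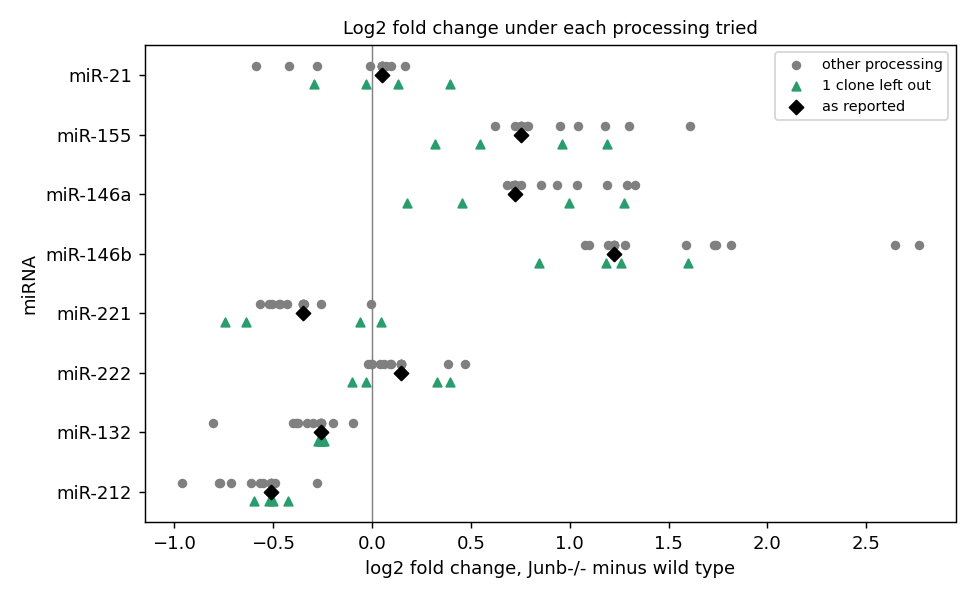
Log2 fold change of Junb-/- minus wild type (x axis) of the 8 miRNAs as reported (black), under other processing (grey) and with 1 clone left out (green). All values of miR-155, miR-146a and miR-146b lie above 0 and all those of miR-132 and miR-212 below 0, while miR-21, miR-221 and miR-222 have values on both sides.

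Further miRNAs of the same signalling pathways were read from the same fit. Over the array, 0.563% of miRNAs were called higher and 0.845% lower, and 10.4% had an unadjusted p under 0.05 from limma. The Junb-/- clones lay above both wild type clones for 21.3% and below both for 17.3%. A count of 0 called in a list this short is near these shares. Of 4 others that are reported AP-1 targets, miR-101a, miR-101b, miR-144 and miR-203, none was called and the clones of all 4 overlapped, with a median log2 fold change of -0.30 and a range from -0.45 (miR-101a) to 0.15 (miR-203). Of 13 others linked to Toll-like receptor, NF-kB or cytokine signals, none was called in either direction, and none passed at an unadjusted p under 0.05. The Junb-/- clones lay above both wild type clones for 4 of the 13 and below both for 2. Their median was 0.11, with miR-210, a hypoxia-induced miRNA, the highest at 0.62 (adjusted p = 0.624 from limma) and miR-29a, which represses collagen genes, the lowest at -0.45 (adjusted p = 0.738 from limma). Of 8 others linked to neuronal activity, CREB or MEF2, 1 was called lower, against 0.845% of all miRNAs. It was mmu-miR-379 of the imprinted Dlk1-Dio3 region. No other member of this list was called, the median was -0.0026, and miR-138 was the highest at 0.49. Whether the difference in mmu-miR-379 is tied to these signals was not tested. Wild type clones 1 and 2 held mmu-miR-379 at 8.47 and 9.87, against 7.22 and 6.20 for Junb-/- clones 1 and 2 (log2 fold change -2.45, 95% interval -3.48 to -1.43, adjusted p = 0.0163 from limma). Its sign held under all 18 alternatives, of which those that keep the clone levels could not change it. mmu-miR-379 was called under 9 of the 18. With a wild type clone left out, when no miRNA of the array was called, its log2 fold change was -3.15 without clone 1 and -1.75 without clone 2 (adjusted p = 0.109 and 0.329 from limma). It was called without Junb-/- clone 1 (-2.96) and without Junb-/- clone 2 (-1.94).

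Because miR-146a, miR-146b and miR-155 are abundant in immune cells, markers of such cells are given beside them. All 6 listed blood and immune markers (miR-142-3p, miR-142-5p, miR-223, miR-150, miR-451 and miR-144) were measured. None was called, against 0.563% called higher and 0.845% lower over the array, and 5 of the 6 had log2 fold changes below 0. Their median was -0.13, with miR-223 the highest at 0.47 (adjusted p = 0.738 from limma). Summed over these markers, the median spot intensities as deposited came to 107.6 and 281.7 for wild type, against 188.0 and 316.7 for Junb-/-. Such sums are not normalized, wild type clone 1 has the dimmest array, and sums of different lists cannot be compared because probes differ in brightness. No marker had a median of 0. Their part in the values of miR-146a, miR-146b and miR-155 was not tested. The 8 fibroblast and mesenchymal markers had summed medians from 11454 to 22928 over the 4 clones. None was called, and 4 had log2 fold changes above 0 and 4 below. At an unadjusted p under 0.05 in limma 5 passed, against 10.4% of all miRNAs. The clones did not overlap for 3 that were higher and 3 that were lower in Junb-/- MEFs, against 21.3% and 17.3% of all miRNAs. miR-199a-3p was the highest at 1.13 and miR-143 the lowest at -1.36 (adjusted p = 0.184 from limma for both). The lists of endothelial, epithelial, muscle and neuronal markers had no called member, and their summed medians ran from 35.5 to 1004.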

How the data were processed

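Arrays of 2 wild type and 2 Junb-/- MEF clones were analysed. The authors deposited linear spot intensity values (8 spots per miRNA, no background, flag or control columns) and 1 normalized log2 value per miRNA and array. Their image analysis, background step and normalization are not in the text used here. For the full array procedure the paper points to its supplementary methods, which were not used here. Spots without a value (319 to 513 per array) were left out. As no background is given, the offset of 50 was used without normexp. log2(intensity + 50) was quantile-normalized between the 4 arrays, and spots of a miRNA were averaged. All 710 miRNAs entered limma 3.58.1 (R 4.3.3; prior degrees of freedom 11.8, residual 2), two-sided, with Benjamini-Hochberg adjustment and a threshold of 0.05. A fold change on this scale understates the change of dim miRNAs. The number of arrays limits the precision. The steps were tested on simulated data in which far more miRNAs were changed than were called here. No statement on the members rests on that test. Plots used matplotlib 3.10.9.

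Members and lists were chosen with earlier results of these data known. All members are named. Of each list, every called member is named. The highest or lowest log2 fold change is given too, except for the endothelial, epithelial, muscle and neuronal markers. Alternatives were other offsets, scalings and spot summaries, the authors' log2 values, a filter on dim miRNAs, limma with a variance trend and robust fit, the replicate block (clone number), each clone left out, and the methods' t-test, which the paper uses for qRT-PCR while it uses limma for arrays. No slide is named, so no slide block was run.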

Additional observations from a re-analysis of the deposited data

How the results depend on the processing

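No member was called under the 11 alternatives that called any miRNA of the array (4 to 29 of them, against 10 as reported). The other 7 called 0 of all miRNAs (no offset, no normalization, median scaling, the median over spots, the methods' t-test and leaving out either wild type clone), so they say nothing about the members. The median log2 fold change of the members, 0.10 as reported, was -0.17 with median scaling and lay between -0.17 and 0.36 when 1 clone was dropped. miR-21 changed sign with median scaling (-0.59), 75th percentile scaling (-0.42), the authors' values (-0.28) and the median over spots (-0.0080), and lay between -0.29 and 0.39 when 1 clone was dropped. miR-222 changed sign with median scaling (-0.023) and the median over spots (-0.0028), and lay between -0.10 and 0.40 when 1 clone was dropped. miR-221 then lay between -0.74 and 0.046. The cause of these shifts was not tested. The median over all miRNAs, 0.04 as reported, was 0.23 without normalization and -0.09 with median scaling. The other 5 members kept their sign throughout, though alternatives that keep the clone levels could not change it. The filter on dim miRNAs left 4 members, miR-21, miR-146b, miR-221 and miR-222. Clones with the same number deviated from their genotype means with a correlation of 0.31 across miRNAs, too few pairs to call them paired. The paper speaks of clone pairs without tying them to these numbers. Between clones of the same number, miR-221 differed by -0.46 and -0.24 and miR-146b* by -0.54 in both, with adjusted p-values of 0.617 and 0.414 from limma with the replicate block. With the replicate block miR-146b kept its log2 fold change of 1.22 at an adjusted p of 0.0559 from limma, and the block called no member. Over the array it called 16 miRNAs, against 10 without it. Spots above the offset numbered 8 of 28 for miR-155, 12 of 32 for miR-146a, 10 of 32 for miR-132, 15 of 32 for miR-212 and, in wild type, 3 of 12 for miR-146b, which limits the size of difference that could be seen.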
